A study of Homo sapiens with 8 samples.

Results

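The genes described here encode the kinetochore, the centromere and the spindle checkpoint, the machinery that joins chromosomes to the mitotic spindle. They were chosen by name, as 41 genes in 10 role groups, with older names of a gene counted as that gene. Of these 41 genes, 40 had a probe on the array, among 22439 named genes in all, and CENPM was the gene without a matched probe. The 40 genes were read by 52 probes.

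RNA of human lung cancer cell lines was measured on 8 two-colour Agilent expression arrays, with treated RNA in the Cy5 channel and control RNA of the same line in the Cy3 channel of every array. EBC-1 and SK-MES-1, both lung squamous cell carcinoma (LUSQ) lines, were transfected with miR-150-3p, with 1 array for each line, to find genes lowered by this miRNA. SBC-3, a small cell lung cancer line, was transfected with 3 different siRNAs against DONSON, named siDONSON-1, siDONSON-2 and siDONSON-3, with 1 array each. A549, a lung adenocarcinoma line, was genome edited at LOXL2 and gave 3 arrays, named A549-GE1, A549-GE2 and A549-GE3. The labels do not state whether these 3 edited samples were clones or pools. They call the control RNA both mock treated and untransfected. No array had the dyes swapped, so a dye effect of a gene's own probe cannot be told apart from the treatment on any array alone. Nothing stated that the arrays of a group came from separate cultures, and the control RNA of a line may have been 1 RNA. The p-values given here therefore measure only the spread between these samples, which may be technical. Groups fitted together share the spread of each gene, so the p-value of a group also carries the scatter of the others.

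Kinetochores are protein layers built on centromeric chromatin that carries the histone variant CENP-A. An inner network, the constitutive centromere-associated network (CCAN), ties that chromatin to an outer layer made of the KNL1, MIS12 and NDC80 complexes, which holds microtubules. Unattached kinetochores recruit BUB and MAD proteins and the kinase TTK, and so restrain the anaphase-promoting complex, and many of these genes are transcribed mainly from late S phase to mitosis in dividing cells.

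Every ratio below is a log2 ratio of treated over control signal on an array, so -1 means that the treated signal was 2-fold lower. On each array 14759 to 16178 named genes had a spot well above background in the Cy3 or the Cy5 channel, and these genes served as the comparison for the kinetochore genes. The median ratio of all such genes lay between 0.018 on the SK-MES-1 and A549-GE1 arrays and 0.053 on the EBC-1 array. All 40 genes with a probe were measured on all 8 arrays. The scanner software gives an error for each ratio, and a ratio is called outside its limits when it lies past the 95% limits of that error. Values for the 3 siRNAs and for the 3 edited samples are given in the order of their numbers.

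The targets of the knockdown and of the edit were low in the samples named for them. DONSON, a replication fork factor, stood at -2.15, -1.79 and -2.11 with the 3 siRNAs, and at 0.12, 0.19 and -0.13 in the 3 edited samples. It was low in every siDONSON sample and near 0 in every edited sample. limma gave a mean of -2.02 for DONSON over the 3 siDONSON arrays (SE 0.106, adjusted p 0.00197, lower on 3 of 3 arrays). LOXL2, a lysyl oxidase family enzyme, stood at -2.49, -2.67 and -2.59 in the edited samples and at -0.81, 0.56 and 0.22 with the siRNAs. Its ratios in the edited samples did not overlap with those of the siRNA arrays, and its mean in the edited samples was -2.58 (SE 0.243, limma adjusted p 0.00342, lower on 3 of 3 arrays).

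Markers of the labelled cancer types were only partly present in the control RNA. Of 6 squamous markers, SOX2 alone was well above background in EBC-1, while TP63, KRT14 and SOX2 were so in SK-MES-1. KRT5, KRT6A and DSG3 were not well above background in any of the 4 lines. SOX2 was above background in all 4 lines, with a log2 level of -0.63 in EBC-1, -1.73 in SK-MES-1, 5.87 in SBC-3 and 0.94 in A549, and TP63 was above background in SBC-3 too. Among the small cell markers reported here, NEUROD1, CHGA, SYP and YAP1 were above background in SBC-3, and INSM1 and POU2F3 were not. YAP1 was above background in all 4 lines, and CHGA was so in A549 too. Of 5 adenocarcinoma markers, NAPSA and KRT7 were above background in A549, and NKX2-1, SFTPB and SFTPC were not. NAPSA and KRT7 were also above background in EBC-1 and SK-MES-1, and KRT7 had a level of 9.03 in A549, beside 9.16 in EBC-1, 7.80 in SK-MES-1 and 2.22 in SBC-3. The squamous label of EBC-1 thus had no support from the 6 squamous markers, since the only one present was also present in the other lines.

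After transfection of miR-150-3p into EBC-1, most kinetochore genes were lower than in the control. Of the 40 genes, 32 had a ratio below -1 on the EBC-1 array, beside 6.04% of all 14759 genes, and 0 had a ratio above 1, beside 5.96% of all genes. The median of the 40 genes was -1.66, and the median of all genes was 0.053. Ratios ran from -3.04 for CENPU to 0.10 for PMF1, the only gene of the 40 above 0 there. Ranked among all genes on that array, 29 of the 40 lay within the lowest 500 and 6 within the lowest 100. With normexp background correction and loess in place of the scanner software, 14 of the 40 lay below -1, beside 1.75% of all genes, and their median was -0.71. This setting added an offset of 50 to the signals, which draws ratios toward 0, most for dim spots. A single array has no replicate check, so these counts describe that array. In bulk RNA a smaller share of dividing cells cannot be told apart from less RNA of these genes per cell. Proliferation markers were low on the same array, with 6 of 6 below -1 and a median of -1.94, and their part in the result was not tested. Among these markers PCNA stood at -2.54, TOP2A at -2.10, MKI67 at -2.03, CCNA2 at -1.84, MCM2 at -1.52 and CCNB1 at -1.31.

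**Figure D1:**
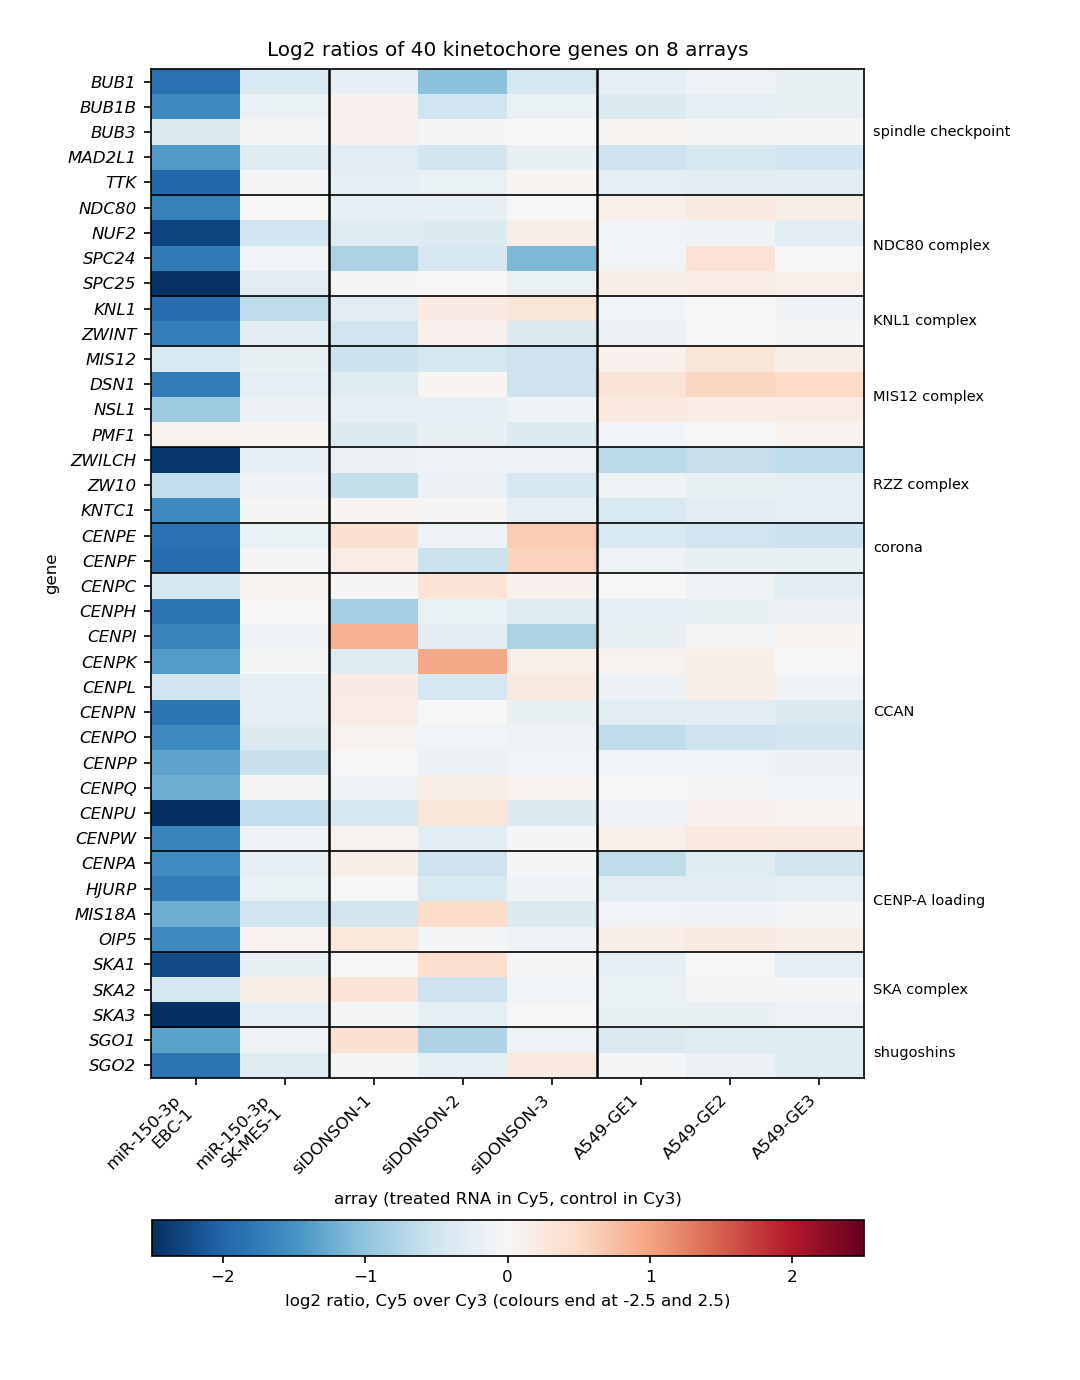
Log2 ratio of treated over control RNA (colour) for the 40 genes, ordered by role, on the 8 arrays. The EBC-1 column is blue for 39 of 40 genes, while the other 7 columns stay near 0 for most genes.

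Transfection of the same miRNA into SK-MES-1 gave far smaller ratios. Here 0 of the 40 genes lay below -1, beside 1.27% of all 16178 genes, and 0 lay above 1, beside 2.57% of all genes. The median of the 40 genes was -0.17, or -0.077 with normexp and loess, and 34 of them lay below 0. Values ran from -0.63 for KNL1 to 0.16 for SKA2. By the error limits, 7 of the 40 genes were lower outside the limits, beside 9.46% of all genes, and 0 were higher, beside 9.76% of all genes. The 7 genes were NUF2, KNL1, CENPE, CENPO, CENPP, CENPU and MIS18A, and their share of the 40 was not tested against that of all genes. The CENPP value there joined 2 probes that stood far apart, at -1.08 and -0.028. Proliferation markers had a median of -0.18 on this array and 0 of 6 lay past -1 or 1, while 3 of 6 were lower outside the error limits and 0 were higher.

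**Figure D2:**
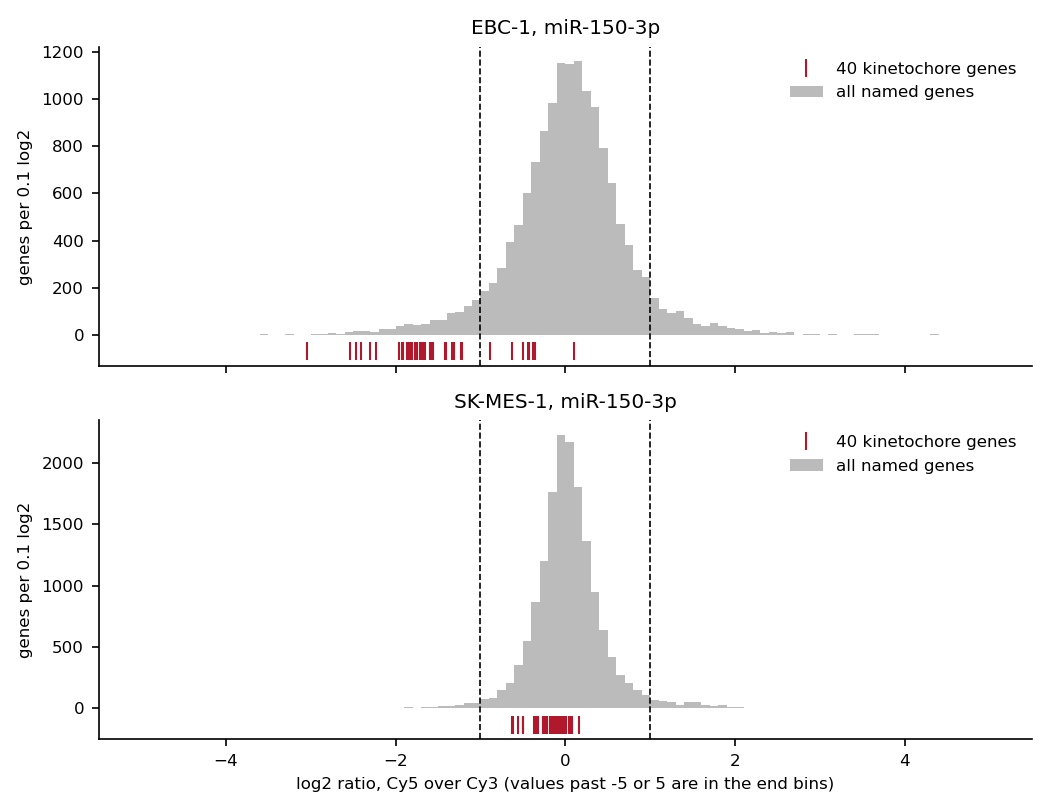
Histograms of the log2 ratio of all named genes (grey bars, genes per 0.1 log2) on the 2 miR-150-3p arrays, with each of the 40 genes as a red tick. On EBC-1, 32 ticks lie left of the dashed line at -1, and on SK-MES-1 0 do.

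Among the genes that sense unattached kinetochores, 4 of 5 lay below -1 on the EBC-1 array. TTK, the kinase that starts checkpoint signalling, was the lowest of them at -1.97 on EBC-1 and stood at -0.047 on SK-MES-1. Its ratios were -0.24, -0.16 and 0.058 with the siRNAs and -0.25, -0.27 and -0.28 in the edited samples. TTK was thus low in EBC-1 alone, with the other 7 arrays between -0.28 and 0.058. BUB1, a checkpoint kinase, stood at -1.86 on EBC-1 and -0.37 on SK-MES-1. BUB1 was below 0 on all 8 arrays, at -0.21, -1.02 and -0.44 with the siRNAs and -0.24, -0.14 and -0.19 in the edited samples. MAD2L1, which encodes the MAD2 inhibitor of CDC20, stood at -1.41 and -0.32 in the same 2 lines. It also was below 0 on every array, with -0.26, -0.46 and -0.19 for the siRNAs and -0.52, -0.39 and -0.48 for the edited samples. BUB3, the adaptor that brings BUB1 to the kinetochore, was the highest of the group on EBC-1, at -0.35, and stood at -0.024 on SK-MES-1. Its other 6 values lay close to 0, at 0.11, -0.054 and 0.0076 and at 0.043, 0.025 and -0.028. The BUB3 means with siDONSON-2 and siDONSON-3 joined probes of opposite sign, at 0.15 and 0.20 for the brighter and -0.25 and -0.19 for the dimmer. Those in A549-GE1 and A549-GE2 did so too, with smaller gaps. BUB1B, the BUBR1 subunit of the checkpoint complex, stood at -1.59 on EBC-1 and -0.17 on SK-MES-1.

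All 4 genes of the NDC80 complex, the coupler that grips microtubules, lay below -1 on EBC-1. SPC25 stood at -2.46 on EBC-1 and -0.26 on SK-MES-1. On the other arrays SPC25 stood at -0.035, 0.0044 and -0.17 and at 0.16, 0.18 and 0.14, so the EBC-1 value lay far from all others. NUF2, the partner of NDC80 at the microtubule end, stood at -2.30 and -0.50 in the 2 transfected lines. Its remaining values were -0.31, -0.35 and 0.16 with the siRNAs and -0.071, -0.083 and -0.28 in the edited samples, and only siDONSON-3 gave a value above 0. NDC80 itself stood at -1.69 on EBC-1 and was level with its control on SK-MES-1, at 0.011. In the remaining samples it stood at -0.25, -0.21 and 0.0059 and at 0.12, 0.22 and 0.15, with all 3 edited samples above 0. SPC24, which anchors the complex with SPC25, stood at -1.77 on EBC-1 and -0.070 on SK-MES-1. Its Cy5 signal on EBC-1 was not well above background, which makes the ratio a bound, taken from the dimmest signal counted as well above background on that array. SPC24 was at least 2.57-fold lower in transfected EBC-1.

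The other outer complexes differed among themselves. Both genes of the KNL1 complex lay below -1 on EBC-1, but only 1 of 4 genes of the MIS12 complex did. KNL1, the scaffold that BUB proteins bind (CASC5 in older naming), stood at -1.91 on EBC-1 and -0.63 on SK-MES-1. The SK-MES-1 value is the mean of 2 probes, at -0.42 for the brighter and -0.85 for the dimmer, while on EBC-1 the brighter probe alone counted. Its place as lowest of the 40 genes on SK-MES-1 rests on the dimmer probe. With the siRNAs KNL1 stood at -0.29, 0.20 and 0.31, and in the edited samples at -0.061, -0.0035 and -0.094. The means near 0 after editing joined probes of opposite sign, at -0.30, -0.21 and -0.27 for the brighter and 0.18, 0.20 and 0.081 for the dimmer. Both transfected lines thus lay below all other samples for KNL1. ZWINT, its binding partner, stood at -1.71 and -0.26. The siRNA arrays gave -0.50, 0.11 and -0.37 for ZWINT and the edited samples gave -0.14, 0.0063 and -0.045. DSN1 was the lowest of the MIS12 complex, the bridge between inner and outer kinetochore, at -1.75 on EBC-1 and -0.22 on SK-MES-1. Its values were -0.33, 0.048 and -0.52 with the siRNAs and 0.32, 0.55 and 0.49 in the edited samples, and these groups did not overlap. PMF1, another subunit of that bridge, was the highest of all 40 genes on EBC-1 (0.10) and stood at 0.045 on SK-MES-1. PMF1 then stood at -0.35, -0.19 and -0.34 and at -0.074, 0.0029 and 0.083, below 0 for all siRNAs and on either side of 0 after editing. MIS12 stood at -0.38 on EBC-1 and -0.18 on SK-MES-1, within the error limits on both arrays, and NSL1 at -0.89 and -0.14.

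The corona and the RZZ complex, which form on unattached kinetochores and bring dynein there, held 4 of 5 genes below -1 on EBC-1. ZWILCH, an RZZ subunit, stood at -2.41 on EBC-1 and -0.24 on SK-MES-1. Its siRNA values were -0.14, -0.13 and -0.14, close together, and its values in the edited samples were -0.68, -0.57 and -0.64. The edited samples thus lay below the siRNA samples for ZWILCH without overlap. ZW10, a subunit with a further role in membrane traffic, was the highest of the RZZ genes on EBC-1, at -0.62, and stood at -0.10 on SK-MES-1. ZW10 was below 0 on every array, with -0.60, -0.15 and -0.42 for the siRNAs and -0.11, -0.19 and -0.23 for the edited samples. CENPF, a large corona protein, stood at -1.93 on EBC-1 and -0.029 on SK-MES-1. The siRNAs split for CENPF, at 0.19, -0.54 and 0.57, while the edited samples stood at -0.12, -0.19 and -0.19. In the edited samples the 2 probes of CENPF had opposite signs, at 0.089, 0.044 and 0.019 for the brighter and -0.32, -0.43 and -0.41 for the dimmer, so its direction there was not settled. CENPE, a kinesin motor of the corona, stood at -1.87 and -0.17 in the transfected lines. Its siRNA values were 0.39, -0.13 and 0.64 and its values in the edited samples -0.39, -0.49 and -0.53. For both corona genes siDONSON-2 was the only siRNA with a value below 0, though the CENPF value with siDONSON-1 joined probes at 0.48 and -0.11.

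In the inner network, 9 of 11 measured genes lay below -1 on EBC-1, with a median of -1.58. CENPU, which docks the kinase PLK1 at the inner kinetochore, had the lowest ratio of all 40 genes on EBC-1 (-3.04) and stood at -0.62 on SK-MES-1. Outside the transfected lines CENPU stood at -0.40, 0.31 and -0.35 and at -0.080, 0.10 and 0.042, on either side of 0. CENPC, the link from CENP-A chromatin to the MIS12 complex, was the highest of the network on EBC-1 at -0.44 and stood at 0.067 on SK-MES-1. It was the only gene of the 40 above 0 with all siRNAs, at 0.027, 0.33 and 0.10, and it stood at -0.013, -0.14 and -0.26 in the edited samples. CENPO, a partner of CENPU, stood at -1.58 on EBC-1 and -0.35 on SK-MES-1. CENPO gave 0.10, -0.066 and -0.13 with the siRNAs and -0.63, -0.52 and -0.46 in the edited samples, again without overlap between these groups. CENPP, of the same subcomplex, stood at -1.31 on EBC-1 and -0.56 on SK-MES-1, but its 2 probes stood far apart on both arrays. The brighter gave 0.097 on EBC-1 and -0.028 on SK-MES-1, and the dimmer gave -2.73 and -1.08. Brightness here is the mean of both channels over all arrays, which a fall in treated signal lowers by itself. On the A549 arrays the lowered probe was the brighter, with mean log2 signals of 9.96, 9.94 and 10.03 beside 9.23, 9.28 and 9.34. The remaining CCAN genes (CENPH, CENPI, CENPK, CENPL, CENPN, CENPQ and CENPW) ran from -1.83 for CENPH to -0.50 for CENPL on EBC-1, and from -0.23 for CENPN to -0.0073 for CENPH on SK-MES-1. The Cy3 signal of CENPL on EBC-1 was not well above background, so its ratio there gives no bound.

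CENP-A and the genes that load it onto centromeres all lay below -1 on EBC-1, 4 of 4. HJURP, the CENP-A chaperone, stood at -1.74 on EBC-1 and -0.16 on SK-MES-1. It gave -0.0042, -0.38 and -0.086 with the siRNAs and -0.27, -0.26 and -0.22 in the edited samples, none of which was above 0. CENPA, the histone variant itself, stood at -1.56 and -0.21 in the transfected lines. CENPA ran apart among the siRNAs, at 0.16, -0.52 and -0.025, and stood at -0.64, -0.30 and -0.46 in the edited samples. MIS18A, a licensing factor for loading, was the highest of the 4 on EBC-1, at -1.21, and stood at -0.49 on SK-MES-1. Its siRNA values were -0.45, 0.46 and -0.34, with siDONSON-2 alone above 0, and its values in the edited samples were -0.077, -0.081 and -0.039. OIP5, which forms the MIS18 complex with it, stood at -1.59 on EBC-1 and 0.074 on SK-MES-1.

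Of the SKA complex, which tracks shrinking microtubule ends, 2 of 3 genes lay below -1 on EBC-1. SKA3 stood at -2.53 there and at -0.22 on SK-MES-1. On the remaining arrays SKA3 stood at -0.046, -0.23 and 0.014 and at -0.19, -0.18 and -0.12. SKA1 followed at -2.24 on EBC-1. SKA2, the small subunit, was the highest of the 3 at -0.43 on EBC-1, and had the highest ratio of all 40 genes on SK-MES-1, at 0.16. Its remaining values were 0.32, -0.51 and -0.073 and -0.16, -0.033 and -0.038, above 0 with siDONSON-1 alone. SGO2, a shugoshin that guards cohesin at centromeres, stood at -1.83 on EBC-1 and -0.33 on SK-MES-1. As for SPC24, its Cy5 signal on EBC-1 was not well above background, and SGO2 was at least 3.55-fold lower there. SGO2 stood at -0.055, -0.25 and 0.24 with the siRNAs and at -0.044, -0.14 and -0.31 in the edited samples. SGO1, the shugoshin that acts in mitosis, stood at -1.34 and -0.14 in the transfected lines. The siRNAs gave 0.39, -0.76 and -0.13 and the edited samples -0.36, -0.31 and -0.30, with siDONSON-2 lowest of all 6. The 2 probes of SGO1 stood apart with siDONSON-1, at 0.91 and -0.13.

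**Figure D3:**
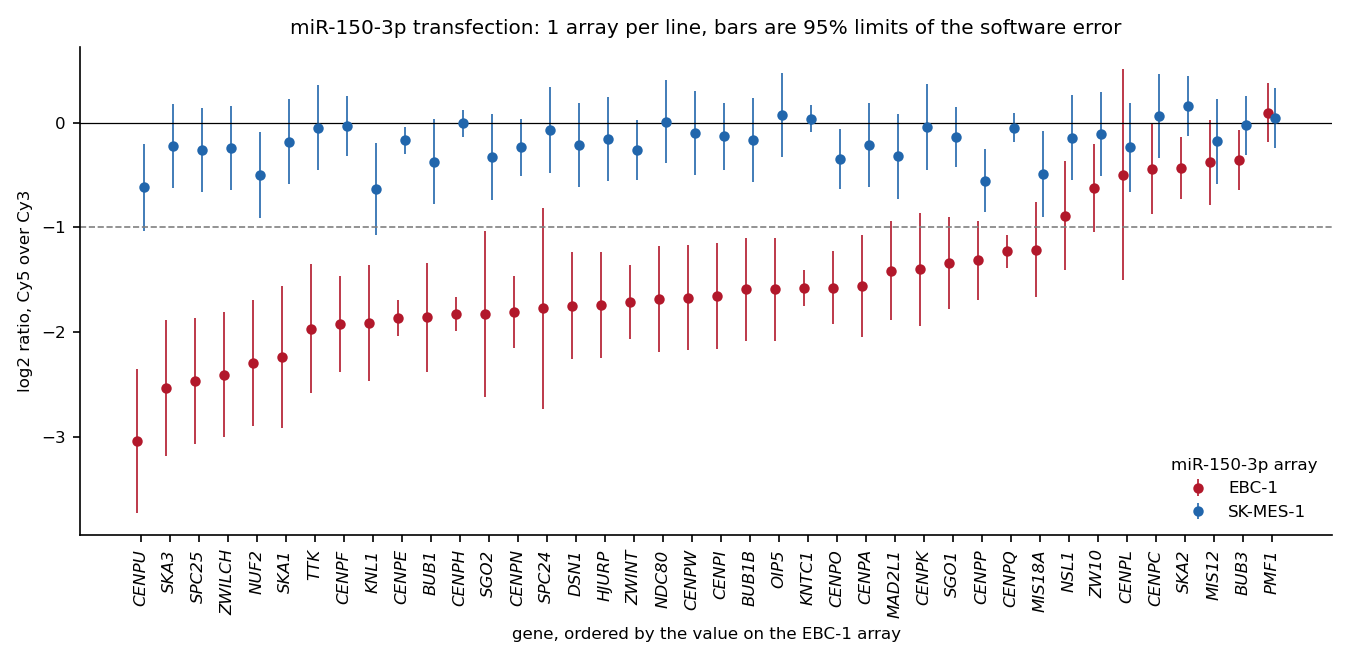
Log2 ratio of each of the 40 genes after miR-150-3p transfection in EBC-1 (red) and SK-MES-1 (blue), with the 95% limits of the software error as bars, in order of the EBC-1 value. The EBC-1 point lies below the SK-MES-1 point for 39 of 40 genes, and the points meet at the right end, where PMF1 stands.

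The 2 transfected lines differed in size for nearly every gene. The EBC-1 ratio lay below the SK-MES-1 ratio for 39 of the 40 genes, with a median gap of -1.49, while over 14230 genes measured in both lines it did so for 7050 and the median gap was 0.0049. With 1 array for each line, the gap between the lines was not tested. None of the 40 genes lay outside the error limits in opposite directions in the 2 lines. Across the 40 genes the ratios of the 2 lines had a Pearson's r of 0.45 and a Spearman's rho of 0.40, beside 0.46 and 0.48 across all genes. Genes are not independent replicates, so these correlations are descriptions.

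The study chose 7 of the 40 genes (BUB1, NUF2, KNL1, ZWILCH, CENPO, CENPA and SKA3) as candidate targets of miR-150-3p, in part by their EBC-1 values. All 7 lay below -1 on EBC-1, with a median of -1.91, and this count is not independent evidence of their direction. Among the other 33 genes, 25 lay below -1, with a median of -1.59. On SK-MES-1 the median was -0.35 for the candidates and -0.14 for the other 33 genes, and the difference was not tested.

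When both transfected lines were taken as 2 samples of 1 treatment, few of the genes passed the test. The mean of the 2 lines was below 0 for 39 of 40 genes, with a median of -0.90, beside 0.035 for all genes. limma, fitted to all 8 arrays in 3 groups with 5 residual degrees of freedom, called 2 of the 40 genes lower, beside 2.90% of 14230 genes. It called 0 higher, beside 2.47% of all genes, and 33 of the 40 had an unadjusted p under 0.05, beside 4266 of 14230 genes. Of the 6 proliferation markers limma called 0, with all 6 at an unadjusted p under 0.05. KNL1 had a mean of -1.27 (SE 0.272, SD 0.905, limma adjusted p 0.0435, lower on 2 of 2 arrays), and with the brighter of its probes alone it did not pass, at -1.16 (limma adjusted p 0.0609). CENPP had a mean of -0.94 (SE 0.166, SD 0.536, limma adjusted p 0.0300, lower on 2 of 2 arrays), and with the brighter of its probes alone the mean was 0.035. The share of 2 in 40 was near that of all genes. The gap between the lines enters the spread of this test, and the number of lower calls without the SK-MES-1 array was 33, where the lone EBC-1 array was assumed to vary like the other groups. Lower calls among all genes rose there as well, to 1585 of 14759. The count for the 40 genes was 0 without EBC-1 (all genes 1), 1 without siDONSON-1 or siDONSON-3 (all genes 333 and 216), and 0 without A549-GE1, A549-GE2 or A549-GE3 (all genes 39, 29 and 48). With each array's ratios centred on their median, all genes called lower and higher went from 413 and 352 to 529 and 293, and the count for the 40 genes was 2 again.

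Since many of these genes share a phase of the cell cycle, their promoters were searched for short motifs known from cell cycle genes. RefSeq promoters of GRCh38.p14, from 250 bases before to 50 bases after each start, were matched for 33 of the 41 genes and gave 38 promoters among 35116 in all. BUB3, TTK, KNL1, KNTC1, CENPH, CENPL, CENPM and MIS18A had no entry. Each motif was searched on both strands: the CHR core TTTGAA, the CCAAT box CCAAT, and the E2F-type words TTTCCCGC or TTTGGCGC. None of these words contains another, though neighbouring matches can share an end base. TTTGAA was present in 16 of 38 promoters (42.1%), beside 15.2% of all promoters. CCAAT was present in 26 of 38 (68.4%), beside 34.6%, and the E2F-type words in 4 of 38 (10.5%), beside 2.27%. TTTGAA and CCAAT occurred together in 10 of 38 (26.3%), beside 5.90% of all promoters. Among genes below -1 on EBC-1, TTTGAA was in 14 of 31 promoters (45.2%), and among the others in 2 of 7 (28.6%). For CCAAT the shares were 20 of 31 (64.5%) and 6 of 7 (85.7%), the opposite order. The E2F-type words were in 2 of 31 (6.45%) and 2 of 7 (28.6%), where both of the 2 were overlapping promoters of MIS12, so that 1 of 6 genes held them, and TTTGAA with CCAAT in 8 of 31 (25.8%) and 2 of 7 (28.6%), so TTTGAA alone was the more frequent in the lowered genes. With 7 promoters on 1 side, these shares were not tested. A match is a description of the sequence and shows no binding.

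Promoters of 3 genes are printed 5′ to 3′ from the gene's own strand, with every match in capitals, to show how these sequences differ at the extremes of the EBC-1 values. They are CENPU, the lowest gene there (chr4:184734047-184734346, minus strand), SPC25, the lowest gene with both TTTGAA and CCAAT (chr2:168890381-168890680, minus strand), and PMF1, the highest gene (chr1:156212757-156213056, plus strand), all on GRCh38.p14. A match on the other strand reads TTCAAA or ATTGG here. CENPU held a CCAAT match alone, SPC25 held 2 matches of each word, and PMF1 held 3 CCAAT matches.
CENPU: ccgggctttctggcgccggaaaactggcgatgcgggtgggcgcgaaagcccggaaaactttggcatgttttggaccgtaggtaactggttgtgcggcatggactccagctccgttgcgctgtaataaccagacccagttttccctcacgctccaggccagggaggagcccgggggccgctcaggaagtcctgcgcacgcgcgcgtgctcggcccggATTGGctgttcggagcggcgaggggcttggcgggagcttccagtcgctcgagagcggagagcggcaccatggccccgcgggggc
SPC25: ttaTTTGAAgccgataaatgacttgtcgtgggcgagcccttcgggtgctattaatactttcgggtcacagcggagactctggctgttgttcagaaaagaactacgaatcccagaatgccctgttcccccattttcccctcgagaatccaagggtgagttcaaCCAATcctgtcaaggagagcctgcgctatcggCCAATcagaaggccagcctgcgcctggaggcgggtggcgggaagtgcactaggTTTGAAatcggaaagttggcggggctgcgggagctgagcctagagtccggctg
PMF1: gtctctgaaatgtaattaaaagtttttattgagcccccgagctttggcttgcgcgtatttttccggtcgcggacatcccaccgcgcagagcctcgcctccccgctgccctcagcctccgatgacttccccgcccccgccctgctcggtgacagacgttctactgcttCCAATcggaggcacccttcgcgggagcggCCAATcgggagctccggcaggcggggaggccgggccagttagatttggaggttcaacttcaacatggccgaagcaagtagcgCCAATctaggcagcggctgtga

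Knockdown of DONSON in SBC-3 asked which genes follow the loss of this replication factor, and most kinetochore genes had no direction common to the 3 siRNAs. Their medians were -0.051, -0.17 and -0.12 on the 3 arrays, beside medians of all genes of 0.039, 0.051 and 0.026. With normexp and loess the 3 medians were -0.0019, -0.071 and -0.00078, beside 0.028, 0.021 and 0.021. With the brightest probe they were -0.13, -0.15 and -0.072. With siDONSON-1, 7 of the 40 genes were lower outside the error limits and 4 were higher, beside 12.2% and 15.4% of all genes. With siDONSON-2 these counts were 10 and 3, beside 13.0% and 14.4%, and with siDONSON-3 they were 10 and 2, beside 12.3% and 13.9%. As shares of the 40 genes, the lower counts were above and the higher counts below those of all genes with each siRNA, and this was not tested. Of the 40 genes, 10 lay below 0 on all 3 arrays, beside 18.6% of all genes. Only CENPC lay above 0 on all 3, beside 24.1% of all genes. Mixed signs were found in 29 of the 40 genes, beside 8293 of all 14454 genes. The median SD over the 3 arrays was 0.238 for the 40 genes and 0.241 for all genes.

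The 3 siRNAs differed from each other in which kinetochore genes were low. BUB1 at -1.02 was the lowest gene with siDONSON-2, SPC24 at -1.12 with siDONSON-3, and CENPH at -0.84 with siDONSON-1. The highest genes were CENPI at 0.87 with siDONSON-1, CENPK at 0.95 with siDONSON-2 and CENPE at 0.64 with siDONSON-3. CENPI had 2 probes that stood at 1.78 and -0.026 on the siDONSON-1 array, so its mean there hid a gap between probes. The probe at 1.78 was the dimmer and counted on this array alone of the 3. The place of CENPI as highest gene thus rests on that probe. Proliferation markers also split by siRNA. MKI67 stood at 0.29, -0.93 and -0.29, TOP2A at 0.29, -0.90 and 0.21, CCNA2 at -0.32, -1.03 and -0.32 and CCNB1 at 0.15, -0.22 and 0.030, all lowest with siDONSON-2, while PCNA stood at -0.022, 0.12 and 0.12 and MCM2 at 0.14, 0.20 and -0.17, neither lowest there. By the lowest of the 3 values, 15 of the 40 genes fell to siDONSON-1, 16 to siDONSON-2 and 9 to siDONSON-3, beside 4893, 5138 and 4423 of all 14454 genes. Thus siDONSON-2 was not set apart by the number of genes lowest with it, though BUB1, BUB1B, CENPA, HJURP and SGO1 were among its 16. The part of the proliferation markers in these differences was not tested. DONSON itself was less low with siDONSON-2 (-1.79) than with the other siRNAs.

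Over the 3 siDONSON arrays, SPC24 and MIS12 passed the test. limma, fitted to the 6 siDONSON and edited arrays with 4 residual degrees of freedom, called 2 of the 40 genes lower, beside 4.45% of 14454 genes, and 0 higher, beside 5.31% of all genes. At an unadjusted p under 0.05 there were 8 of the 40 genes, beside 4342 of 14454. MIS12, the founding subunit of its complex, stood at -0.53, -0.44 and -0.51, nearly the same with every siRNA. Its mean was -0.50 (SE 0.0752, SD 0.0497, limma adjusted p 0.0208, lower on 3 of 3 arrays). SPC24 stood at -0.79, -0.42 and -1.12, below 0 with each siRNA but with a wide spread. Its mean was -0.78 (SE 0.152, SD 0.354, limma adjusted p 0.0322, lower on 3 of 3 arrays). BUB1 at a mean of -0.56 and MAD2L1 at -0.30, both lower on 3 of 3 arrays, did not pass (limma adjusted p 0.0661 and 0.0684). The share of 2 in 40 was near that of all genes. Without the filter on dim spots the 40 genes again gave 2 lower calls, while all genes gave 2765 lower and 1021 higher of 22438. The mean was below 0 for 29 of the 40 genes, with a median of -0.099, beside 0.031 for all genes. It was so for all 4 MIS12, 4 NDC80, 3 RZZ and 2 shugoshin genes, and for 4 of 5 checkpoint genes. In the other role groups it was so for 3 of 4 CENP-A loading, 2 of 3 SKA and 6 of 11 inner network genes. For the KNL1 complex it was 1 of 2, and for the corona 0 of 2. These role groups were not tested. The lower count was 1 without siDONSON-1, 9 without siDONSON-2 and 0 without siDONSON-3, beside 405, 999 and 57 of all genes. It was 0 without A549-GE1, A549-GE2 or A549-GE3, beside 172, 119 and 139. It was 1 in a fit of all 8 arrays and 0 in a fit of the 3 siDONSON arrays alone, beside 464 and 24. The fit of 6 arrays shared the spread of a gene between the groups. The median SD of the 40 genes was 0.238 for siDONSON and 0.0648 for the edited samples. Centring each array on its median turned the split of all genes from 643 lower and 767 higher into 774 and 597, and that of the 40 genes into 4 and 0.

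**Figure D4:**
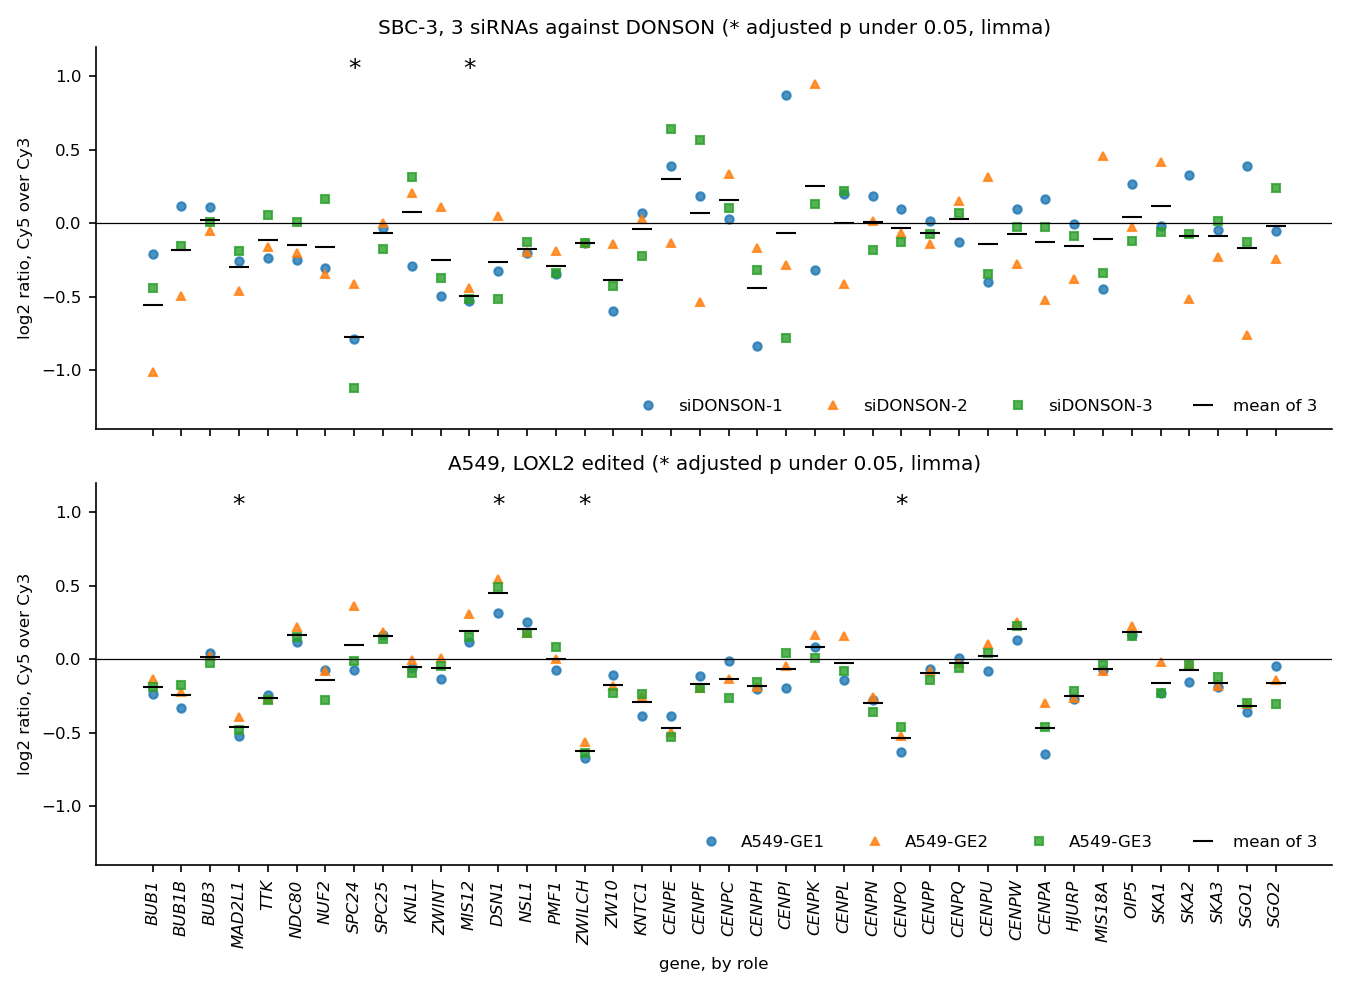
Log2 ratio of the 40 genes on the 3 siDONSON arrays in SBC-3 (top) and the 3 LOXL2-edited arrays in A549 (bottom), with the mean of 3 as a dash and stars for genes with a limma adjusted p under 0.05. The siRNA points of a gene scatter (median SD 0.238), while the edited points lie close together (median SD 0.0648).

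Editing of LOXL2 in A549 asked what changes when this enzyme is lost, and the kinetochore genes showed small ratios that were close between the 3 edited samples. Medians of the 40 genes were -0.11, -0.080 and -0.13 on the 3 arrays, beside 0.018, 0.020 and 0.028 for all genes. With normexp and loess they were -0.037, -0.025 and -0.058, beside 0.015, 0.018 and 0.021. Of the 40 genes, 24 lay below 0 on all 3 arrays, beside 33.4% of all 15531 genes, and 8 lay above 0 on all 3, beside 36.9% of all genes. Small ratios below 0 were thus the more common pattern among the kinetochore genes of the edited samples. The median SD over the 3 arrays was 0.0648 for these genes and 0.104 for all genes. The signals of these genes varied little between the 3 A549 arrays, with a median SD of 0.0395 in the control RNA (Cy3) and 0.0654 in the edited RNA (Cy5). In SBC-3 the same measure was 0.0624 in the control RNA and 0.257 in the siRNA samples.

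In the edited samples 3 genes fell and 1 rose by the test. limma called 3 of the 40 genes lower, beside 8.95% of 15531 genes, and 1 higher, beside 9.65% of all genes, and 12 of the 40 had an unadjusted p under 0.05, beside 5420 of 15531. ZWILCH, the RZZ subunit, had a mean of -0.63 (SE 0.0686, SD 0.0558, limma adjusted p 0.00452, lower on 3 of 3 arrays). CENPO of the inner network had a mean of -0.54 (SE 0.0816, SD 0.0887, limma adjusted p 0.0103, lower on 3 of 3 arrays). The checkpoint gene MAD2L1 had a mean of -0.46 (SE 0.0831, SD 0.0662, limma adjusted p 0.0159, lower on 3 of 3 arrays). DSN1 went the other way, at 0.32, 0.55 and 0.49, with a mean of 0.45 (SE 0.121, SD 0.120, limma adjusted p 0.0480, higher on 3 of 3 arrays). CENPE and CENPA, each with a mean of -0.47 and lower on 3 of 3 arrays, did not pass (limma adjusted p 0.0718 and 0.0698). The share of 3 in 40 was near that of all genes, and without the filter on dim spots 3 were again lower, beside 4310 lower and 1720 higher of 22439 genes. Leaving out siDONSON-2 or siDONSON-3 gave 6 lower calls, beside 2054 and 1405 of all genes, and leaving out A549-GE1, A549-GE2 or A549-GE3 gave 1, beside 304, 211 and 302. A fit of all 8 arrays gave 0 calls in either direction, beside 1051 lower and 1178 higher of all genes, and a fit of the 3 edited arrays alone gave 13 lower and 5 higher, beside 2852 lower and 3021 higher of all 15531 genes. The reported fit took its spread from the siDONSON arrays too, which scattered more than the edited ones. The higher call on DSN1 was absent without siDONSON-1 and without each of the 3 edited arrays, and with each array centred on its median the split of the 40 genes was 5 lower and 0 higher, and that of all genes 1596 and 1273. Of the proliferation markers in these samples, PCNA was higher, at 0.57, 0.74 and 0.65 (mean 0.66, limma adjusted p 0.00505, higher on 3 of 3 arrays), and the other 5 were not called. MKI67 stood at -0.28, -0.24 and -0.14, TOP2A at -0.21, -0.043 and -0.12, CCNA2 at -0.43, -0.31 and -0.38, MCM2 at -0.044, 0.025 and 0.030 and CCNB1 at -0.16, -0.041 and -0.089, and their part in the results was not tested.

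The direct test of siDONSON against the edited samples, in which a dye effect shared by all arrays cancels, separated 4 genes. These groups also differed in cell line, SBC-3 against A549, and in kind of treatment. Neither can be told apart from the loss of DONSON or LOXL2 in this test. limma called 2 of the 40 genes lower with siDONSON, beside 4.64% of 13656 genes, and 2 higher, beside 5.24% of all genes, with 10 of the 40 at an unadjusted p under 0.05, beside 4031 of 13656. MIS12 had means of -0.50 and 0.19, a difference of -0.69 (SE 0.106, limma adjusted p 0.0169). DSN1, of the same complex, had means of -0.27 and 0.45, a difference of -0.72 (SE 0.168, limma adjusted p 0.0458). For both genes all 3 siDONSON values lay below all 3 edited values. ZWILCH had means of -0.14 and -0.63, a difference of 0.49 (SE 0.0957, limma adjusted p 0.0288). CENPO had means of -0.033 and -0.54, a difference of 0.50 (SE 0.113, limma adjusted p 0.0417). In these 2 genes all 3 siDONSON values lay above all 3 edited values. SPC24 and MAD2L1, called in 1 group each, did not pass this test, with differences of -0.87 and 0.16 (limma adjusted p 0.0514 and 0.401), so a difference between the groups was not shown for them. The lower count was 1 without siDONSON-1, 4 without siDONSON-2 and 1 without siDONSON-3, beside 670, 1035 and 377 of all genes, and 0 without A549-GE1, A549-GE2 or A549-GE3, beside 102, 77 and 115. The higher count was 1 without siDONSON-1 and 0 without siDONSON-3, beside 743 and 490 of all genes, and 0 without each edited array, beside 92, 60 and 90.

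Other kinetochore and checkpoint genes, listed beside the 41, gave a picture of the same kind on EBC-1. Of 20 such genes with a probe, 12 lay below -1 there, beside 6.04% of all genes, with a median of -1.27, and 0 of them lay past -1 or 1 on SK-MES-1, with a median of -0.17. KNSTRN, an astrin-binding kinetochore protein, was the lowest at -2.14 and also stood at -0.89 on SK-MES-1. ERCC6L, a centromere translocase, stood at -2.10 and -0.35. TRIP13, the ATPase that disassembles the checkpoint complex, stood at -2.08 and -0.30. ITGB3BP, which encodes the CCAN subunit CENP-R, stood at -1.92 and -0.28. KNSTRN was the only 1 of the 20 called for the mean of the 2 lines (-1.52, limma adjusted p 0.0278, lower on 2 of 2 arrays), beside 2.90% of all genes called lower. HASPIN, the histone kinase that places the chromosomal passenger complex, stood at -0.37, -0.37 and -0.65 with the siRNAs and -0.43, -0.24 and -0.46 after editing. It was the only 1 of the 20 called in either group, with means of -0.46 (limma adjusted p 0.0331, lower on 3 of 3 arrays) and -0.38 (limma adjusted p 0.0376, lower on 3 of 3 arrays), where 4.45% and 8.95% of all genes were called lower. HASPIN was not called for the difference between these groups. A dye effect of its own probe cannot be told apart from the treatments in these means.

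Levels in the control RNA differed between the 4 lines. Each level is the log2 Cy3 signal minus the 75th percentile of its array, so a gene can be compared between lines but not with another gene. A549 had the highest level for 18 of the 40 genes, and 23.5% of 11298 genes measured in every line were highest there. EBC-1 had the lowest level for 19 of the 40 genes, beside 21.4% of all genes. The median difference of A549 from the mean of the other lines was 0.56 for the 40 genes and 0.0021 for all genes. For EBC-1 it was -0.43, beside 0.17 for all genes. Scaling to the 75th percentile of spots above background in Cy3 on all arrays moved these values to 0.48 and -0.080 for A549 and to -0.64 and -0.038 for EBC-1, so the 40 genes stayed on the same side of all genes. By the first scaling CENPA had the widest range of all 40 genes (2.57), at 2.77 in EBC-1, 1.24 in SK-MES-1, 0.20 in SBC-3 and 2.37 in A549. HJURP, its chaperone, stood at 4.65, 5.69, 3.90 and 6.38 in the same order, lowest in SBC-3 like CENPA but highest in A549. SGO2 stood at -1.64, -0.088, -0.68 and 0.84, and ZWILCH at 1.53, 1.41, 1.30 and 2.78, both highest in A549. With the second scaling SGO2 ran wider than CENPA, from -4.89 in EBC-1 to -2.33 in A549. CENPA then ran from -2.70 in SBC-3 to -0.49 in EBC-1. MIS12 differed least between the lines, with a range of 0.29 by the first scaling. EBC-1 and SK-MES-1 had 1 control array each, and no test was made between lines.

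**Figure D5:**
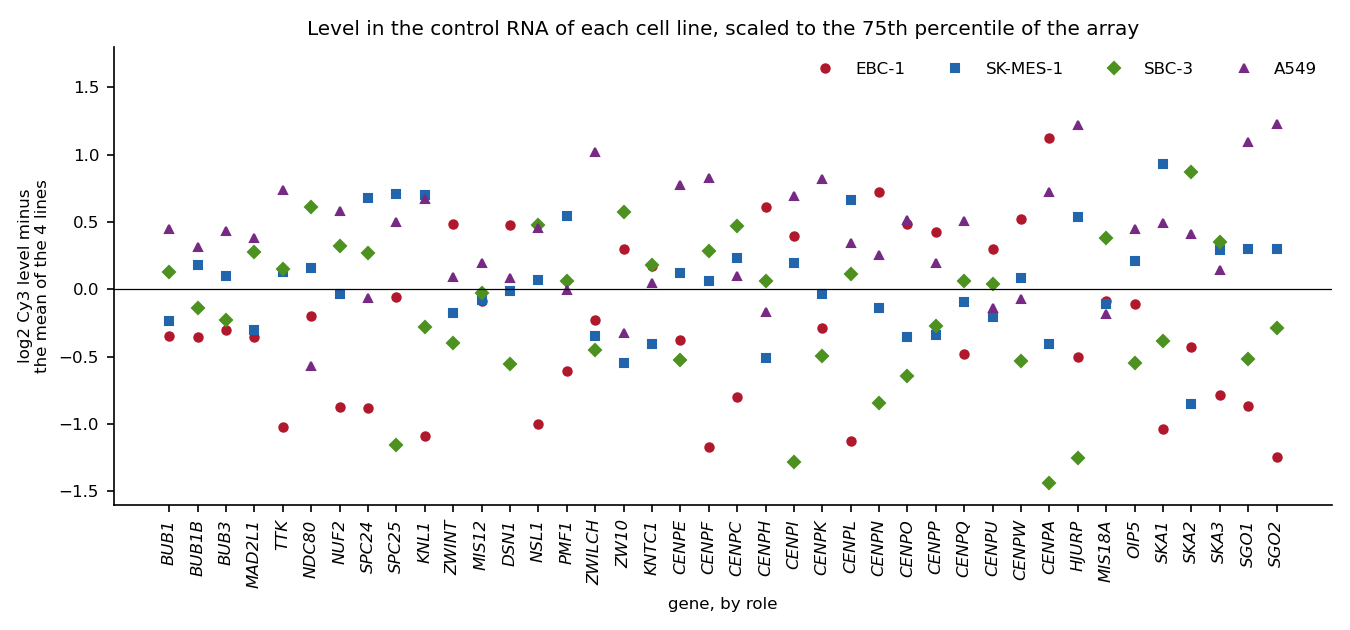
Log2 Cy3 level of each of the 40 genes in the control RNA of the 4 lines, as the difference from the mean of the 4 lines, in order of role. A549 (triangles) is highest for 18 genes and EBC-1 (red) lowest for 19, while MIS12 shows the smallest range.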

How the data were processed

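Two-colour Agilent arrays of the hg19 design were scanned by the authors and read with Feature Extraction 12.1.1.1, which subtracted background, detrended and normalized the dyes within each array. The deposited spot values are intensity signals, and the deposited log ratio and its error are on a log10 scale. The deposited series table holds the same log10 ratios, and they were turned to log2 here as an alternative to the log2 of processed Cy5 over Cy3 intensity that was used. Control and outlier spots were left out, and a spot counted when well above background in Cy3, Cy5 or both. Probes were named by accession through RefSeq genes of GRCh38.p14, which matched 31104 of 58201 probes to 22439 genes, and the counted probes of a gene were averaged. Of the 40 genes, 11 had several probes, and 5 of their 82 pairs of gene and array, in 4 genes (CENPP, CENPN, CENPI and SGO1), had probes over 1 log2 apart.

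Ratios of all named genes measured on every array of a comparison were fitted with limma 3.58.1 (R 4.3.3; lmFit and eBayes), with Benjamini-Hochberg adjustment over all genes and a threshold of 0.05. The fit was tested on simulated data. Tables and plots were made with Python 3.11.15, pandas 2.3.3, numpy 2.4.6 and matplotlib 3.10.9. Members and lists were chosen with earlier results of these data known. Named in full were the lowest and highest gene of each role group on EBC-1, the genes called, the study's candidates, any gene outside the limits in opposite directions in the 2 lines and, from other lists, up to 4 genes called or past the fold. All 8 arrays lay on 1 slide. Alternatives were another background and dye correction, centring, other filters, the brightest probe, the series table, another fold, subtraction of the mean of the other treatments, other sets of arrays in the fit, each array left out, the replicate number as a block, and the genes without the candidates. Markers of fibroblasts and leukocytes were checked too: COL1A1 alone of 5 fibroblast markers was above background in EBC-1, SK-MES-1 and A549, and COL1A1 and COL1A2 in SBC-3. Of 5 leukocyte markers 3 had a probe, and 3, 2, 3 and 2 of them were above background in EBC-1, SK-MES-1, SBC-3 and A549. Not every marker searched is reported here. The mature miR-150-3p sequence was not used here.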

Additional observations from a re-analysis of the deposited data

Results flagged for a closer look

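None of the 40 kinetochore genes stood apart from its group by the rules applied, but a pair of cell type markers lay outside the error limits in opposite directions in the 2 lines transfected with miR-150-3p. SOX2, a squamous lineage factor, stood at 1.32 on the EBC-1 array and at -0.92 on the SK-MES-1 array. YAP1, a Hippo pathway coactivator, stood at 0.30 on EBC-1 and -0.15 on SK-MES-1. The difference between the lines was not tested, since each line had 1 array.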

How the results depend on the processing

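Among means of named genes that an alternative moved at all, 114 kept their direction and their side of the threshold, 84 kept the direction but no longer passed, and 1 reversed. Where an alternative left the mean as it was, the direction could not turn, and 214 passed again while 62 did not. Values on a single array moved by less than their error in 342 cases and by more in 41. The reversed mean was the miR-150-3p mean of CENPP, at 0.035 with the brightest probe. The CENPP probe left out there was the brighter on the A549 arrays. The count of 32 genes below -1 on EBC-1 kept within 1.5 times under all alternatives but normexp and loess, which gave 14 of 40 (1.75% of all genes). That setting changed background correction, dye correction and signal type together. It also added an offset of 50 to the signals, which by construction draws ratios toward 0, most for dim spots. Genes above 1 on EBC-1 fell too, from 5.96% to 0.91% of all genes. The part of each change in the fall was not tested. A log2 limit of 0.58 gave 2 genes lower on SK-MES-1, and the share of all genes at that limit was not counted. With normexp and loess the medians were -0.71 on EBC-1, -0.077 on SK-MES-1, -0.0019 on siDONSON-1, -0.071 on siDONSON-2, -0.00078 on siDONSON-3, and -0.037, -0.025 and -0.058 in the edited samples, and 54 values lay outside the error limits, fewer than as reported. Centring gave -0.15, -0.11 and -0.17 in the edited samples, and the genes without the candidates gave -0.080, -0.033 and -0.060 there. The brightest probe gave -0.13 on siDONSON-1 and -0.072 on siDONSON-3.

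Counts from limma moved under many alternatives, and the cause was not tested where no construction is named. For the miR-150-3p mean, lower calls were 6 with spots above background in both channels, 0 without a filter, 0 with the brightest probe, 5 with normexp and loess, 0 after subtraction of the other 6 arrays, and 1 without the candidates (fewer genes). All-gene lower calls for the first 5 of these were 654, 134, 520, 726 and 155, beside 413 as reported. For siDONSON, lower calls were 4 with centring, 4 with both channels, 4 with normexp, 1 in the fit of all 8 arrays and 0 in the fit of its 3 arrays alone, which has fewer samples (all genes 774, 782, 760, 464 and 24, beside 643). In the edited samples, lower calls were 5 with centring, 5 with both channels, 8 with normexp, 0 with all 8 arrays, 13 alone (all genes 1596, 1650, 1703, 1051 and 2852, beside 1390) and 1 without the candidates. Higher calls there were 0 with centring, 6 with normexp, 0 with all 8 arrays and 5 alone (all genes 1273, 2238, 1178 and 3021, beside 1499). For the difference, lower calls were 4 with both channels, 1 without a filter and 5 with normexp (all genes 729, 518 and 986, beside 633), and higher calls were 0 without a filter and 0 without the candidates. With each array left out in turn, lower calls ran from 0 to 33 for miR-150-3p, 0 to 9 for siDONSON, 1 to 6 for the edited samples and 0 to 4 for the difference, and higher calls from 0 to 0, 0 to 1, 0 to 1 and 0 to 3.

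The numbers shared by siRNAs and edited samples do not pair them: the deviations of same-numbered samples had an r of -0.020, -0.014 and -0.0083. With the number as a replicate block, limma called 0 of the 40 genes lower and 0 higher, and 195 and 195 of all genes. With another scaling, 16 genes were highest in A549 and 22 lowest in EBC-1. The median spot signals stood in for mean signals in normexp, a choice made after seeing the data, as was the second scaling of Cy3 levels. The alternative naming by the array's own gene names was not run. Signal over background limits SPC24, SGO2 and CENPL on EBC-1. Ratios from 1 array for each line, without a dye swap, bound what the 2 miR-150-3p arrays can show.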

Other observations

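Genes that act next to the kinetochore in anaphase mostly had smaller ratios than 2-fold on the EBC-1 array. In the anaphase-promoting complex and its targets, 2 of 17 genes lay below -1 there, beside 6.04% of all genes, with a median of -0.27, and 0 lay past -1 or 1 on SK-MES-1. ESPL1, the separase that opens cohesin rings, stood at -1.28 on EBC-1 and -0.026 on SK-MES-1. PTTG1, the securin that holds separase back, stood at -1.08 and -0.0011. ANAPC10, a subunit that helps bind substrates, stood at -0.75 and -0.57, with similar values in the 2 lines. Its mean was -0.66 (limma adjusted p 0.0303, lower on 2 of 2 arrays), the only call of the 17 for miR-150-3p, beside 2.90% of all genes called lower. limma called 0 of the 17 with siDONSON, in the edited samples and in their difference, where 5, 1 and 3 genes had an unadjusted p under 0.05, beside 4342 of 14454, 5420 of 15531 and 4031 of 13656.

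Cohesin genes, whose product holds sister chromatids together, showed calls in each comparison. Of 13 such genes, 4 lay below -1 on EBC-1, beside 6.04% of all genes, with a median of -0.63. limma called 1 of the 13 lower for miR-150-3p, 2 with siDONSON and 4 in the edited samples, beside 2.90%, 4.45% and 8.95% of all genes, and 0 higher in these 3 comparisons, where 4, 3 and 6 genes had an unadjusted p under 0.05, beside 4266 of 14230, 4342 of 14454 and 5420 of 15531. CDCA5, which encodes sororin, stood at -3.53 on EBC-1 and -0.79 on SK-MES-1. ESCO2, a cohesin acetyltransferase of S phase, stood at -2.82 and -0.18. These 2 genes were the lowest of the list on EBC-1. STAG1, a core subunit, was below 0 on all 8 arrays, at -1.18 on EBC-1, -0.77 on SK-MES-1, -0.69, -1.08 and -0.61 with the siRNAs and -0.47, -0.40 and -0.41 after editing. Its means were -0.98, -0.79 and -0.42 (limma adjusted p 0.0238, 0.0161 and 0.0389), lower on all arrays of each group. STAG1 was not called for siDONSON against the edited samples. A dye effect of its own probe cannot be told apart from the treatments in these means. SMC1A, a ring subunit, stood at -0.67, -1.14 and -0.81 with the siRNAs and -0.10, -0.12 and -0.075 after editing. Its siDONSON mean was -0.87 (limma adjusted p 0.0136, lower on 3 of 3 arrays). For siDONSON against the edited samples limma called 1 of the 13 lower, SMC1A, beside 4.64% of all genes. It called 2 higher, SMC3 and PDS5B, beside 5.24% of all genes. This comparison also sets SBC-3 against A549, so the cell line cannot be told apart from the treatments. The difference of SMC1A between these groups was -0.77 (limma adjusted p 0.0248), with all 3 siRNA values below all 3 edited values. SMC3, the other ring subunit, went the opposite way, at 0.040, 0.0042 and 0.21 and at -0.41, -0.42 and -0.45, a difference of 0.51 (limma adjusted p 0.0336) with all 3 siRNA values above all 3 edited values. RAD21, which closes the ring, and PDS5B, a cohesin regulator, were called lower in the edited samples with means of -0.41 and -0.50 (limma adjusted p 0.0265 and 0.0317, each lower on 3 of 3 arrays).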
